A study of Rattus norvegicus with 12 samples.

Results

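The genes described here are the extracellular metalloproteinases and their inhibitors: the matrix metalloproteinases (Mmp), the tissue inhibitors of metalloproteinases (Timp), the membrane-bound ADAM proteases (Adam), the secreted ADAMTS proteases (Adamts) and the ADAMTS-like proteins (Adamtsl). Their rows were selected by gene name. Of the 23553 entries of the deposited expression table, 75 carried a name of 1 of these 5 classes followed by a number, and 47 of the 75 had at least 0.1 TPM in 3 or more of the 12 libraries. These 47 were 11 of 22 Mmp genes, 4 of 4 Timp genes, 12 of 25 Adam genes, 15 of 19 Adamts genes and 5 of 5 Adamtsl genes. TPM is the authors' level of a gene per transcript length, scaled so that every library has the same total.

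The libraries were polyadenylated RNA from the free walls of the right ventricle (RV) and left ventricle (LV) of 6 adult male Sprague-Dawley rats, 3 to 4 months old. The groups were RVH and LVH, the RV and LV of 3 rats kept for 2 weeks at 10% O2 in a hypobaric chamber, and RVN and LVN, the RV and LV of 3 rats kept in room air for the same time. Hypoxia of this kind raises the pressure in the pulmonary artery and so loads the RV, while the LV meets the low oxygen without that load. The 2 ventricles of a number within an exposure came from the same rat, and hypoxic and normoxic rats that share a number are different animals. Values are listed below for rats 1, 2 and 4 in hypoxia and for rats 1, 2 and 3 in normoxia. The tissue is whole free wall, so fewer cells of a type and less RNA per cell cannot be told apart.

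MMPs cut collagens and other parts of the extracellular matrix and are held in check by TIMPs, which bind the active site. ADAMs sit in the plasma membrane and release the outer part of growth factors, receptors and adhesion molecules. ADAMTS proteases are secreted and cut proteoglycans, procollagens and fibrillin-linked matrix proteins, and ADAMTS-like proteins share their matrix-binding part but have no protease domain. In the heart these families take part in turnover of the matrix around myocytes, in scar formation and in the shape of the valves.

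Estimated counts summed to 21458174 to 39972399 per library. The cardiac myocyte markers summed to 50140 to 68220 TPM, as heart muscle would give. Their sum was 50140 to 55560 TPM in RVH, below the 58820 to 68220 TPM of LVH and the 56650 to 58910 TPM of RVN. RVN overlapped LVN (54330 to 60670 TPM), so these sums do not check the labelled ventricle. LVH rat 1 lay apart from LVH rats 2 and 4, towards RVH, for Mmp2, Mmp14, Timp1, Timp2, Adamts2 and Adamtsl2, and RVH rat 4 was the lowest RVH library for the same genes. LVH rat 2 held 30200 TPM of erythroid markers, against 7420 and 16270 TPM in LVH rats 1 and 4 and 3628 to 5794 TPM in LVN. Fibroblast markers summed to 1877, 2263 and 1035 TPM in RVH and 1507, 725 and 874 TPM in LVH, against 966, 1149 and 929 TPM in RVN and 704, 606 and 718 TPM in LVN. Macrophage and monocyte markers summed to 568, 501 and 327 TPM in RVH and 318, 153 and 181 TPM in LVH, against 199, 279 and 228 TPM in RVN and 157, 115 and 107 TPM in LVN. Both sums were highest in RVH rats 1 and 2. In RVH against RVN, 5 of 10 fibroblast markers and 6 of 15 macrophage and monocyte markers tested passed the test as higher and none as lower, and 3 of 10 cardiac myocyte markers passed as lower. The 5 fibroblast markers were Col3a1, Lum, Dpt, Pdgfrl and Thy1. Of the rest, Pdgfra, Dcn and Tcf21 had log2 fold changes of 0.10, -0.03 and -0.04, and Col1a1 and Postn had 0.98 and 2.12. No marker passed in LVH against LVN from the fibroblast, macrophage or neutrophil lists. The part of these cell types in the results below was not tested.

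Timps were the most abundant of the 5 classes. Their summed TPM averaged 253.7 ± 51.4 in RVH and 183.6 ± 62.7 in LVH, against 184.5 ± 18.9 in RVN and 140.3 ± 4.6 in LVN (SD, n = 3 each). The summed Mmp genes averaged 165.8 ± 52.8 TPM in RVH and 113.1 ± 49.6 TPM in LVH, against 104.0 ± 2.6 TPM in RVN and 76.2 ± 1.9 TPM in LVN. The spread between hypoxic libraries was wider than that between normoxic ones in both ventricles. Mmp2, Timp2 and Timp3 had the highest mean TPM, which is a level per transcript length. At the low end, 28 of the 75 genes lay below 0.1 TPM in 10 or more libraries. Of these, Mmp1, Mmp1b, Mmp27, Adam5, Adam6, Adam7, Adam18, Adam24, Adam26a, Adam28 and Adam34l were listed at 0 in every library. The others were Mmp3, Mmp7, Mmp9, Mmp10, Mmp11, Mmp13, Mmp20, Mmp21, Adam2, Adam3a, Adam21, Adam30, Adam32, Adamts13, Adamts16, Adamts18 and Adamts20. A count of 0 allows up to 3 counts, which is 0.0750 to 0.140 TPM across the libraries, so the lowest of these levels are not distinguishable from 0 at this depth.

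Mmp9, gelatinase B of neutrophils and macrophages, was among the genes below 0.1 TPM in most libraries. It had 0.145, 0.171 and 0.0656 TPM in RVH and 0.0584, 0.0737 and 0.0522 TPM in LVH, against 0.0250, 0.0767 and 0.0714 TPM in RVN and 0.0152, 0.0457 and 0.0426 TPM in LVN. RVH rats 1 and 2 were highest and RVH overlapped RVN. The neutrophil markers summed to 8.41 to 12.8 TPM in RVH and 2.04 to 4.02 TPM in RVN. Most of this sum was S100a8, S100a9 and Csf3r, each higher in every RVH than in every RVN library. Cxcr2, Elane, Mpo and Ngp overlapped between RVH and RVN, and Camp was at 0 in all of these libraries.

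Of the 47 genes, 38 had enough counts to be tested. The test was edgeR's quasi-likelihood fit, with a call at an adjusted p of 0.05. In RVH against RVN it called 7 of 38 (18.4%), where it called 15% of all 13756 genes tested (7.43% higher and 7.60% lower). Of the 7, 6 were higher and 1 was lower. The share of the metalloproteinase and inhibitor genes was thus close to that of all genes. They were Timp1, Timp2, Mmp23, Adam15, Adamts19 and Adamtsl2, which rose, and Timp4, which fell. The median log2 fold change of the 38 was 0.16, against -0.00 for all genes tested. Of the 38, 25 were positive (65.8%, against 49.7% of all genes tested). Scaling by library totals in place of TMM factors moved the median of all genes by 0.12. With it 3 higher and 1 lower passed, where 1293 of all genes did, and 29 of 38 were positive. The share of all genes positive under library totals was not counted. Without RVH rat 1, RVH rat 2, RVN rat 1 or RVN rat 3, only Adamts19 of the 7 passed, and 734, 599, 619 and 805 of all genes did in place of 2067. Without RVH rat 4, 10 passed, which gained Mmp2, Mmp14, Adamts4 and Adamts17 and lost Adam15, and 2460 of all genes did. The likelihood ratio test called 10, the same 7 with Mmp14, Adamts4 and Adamts6 added, and DESeq2 called 9, the same 7 with Mmp2 and Mmp14 added, where these tools called 2420 and 2273 of all genes.

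**Figure D1:**
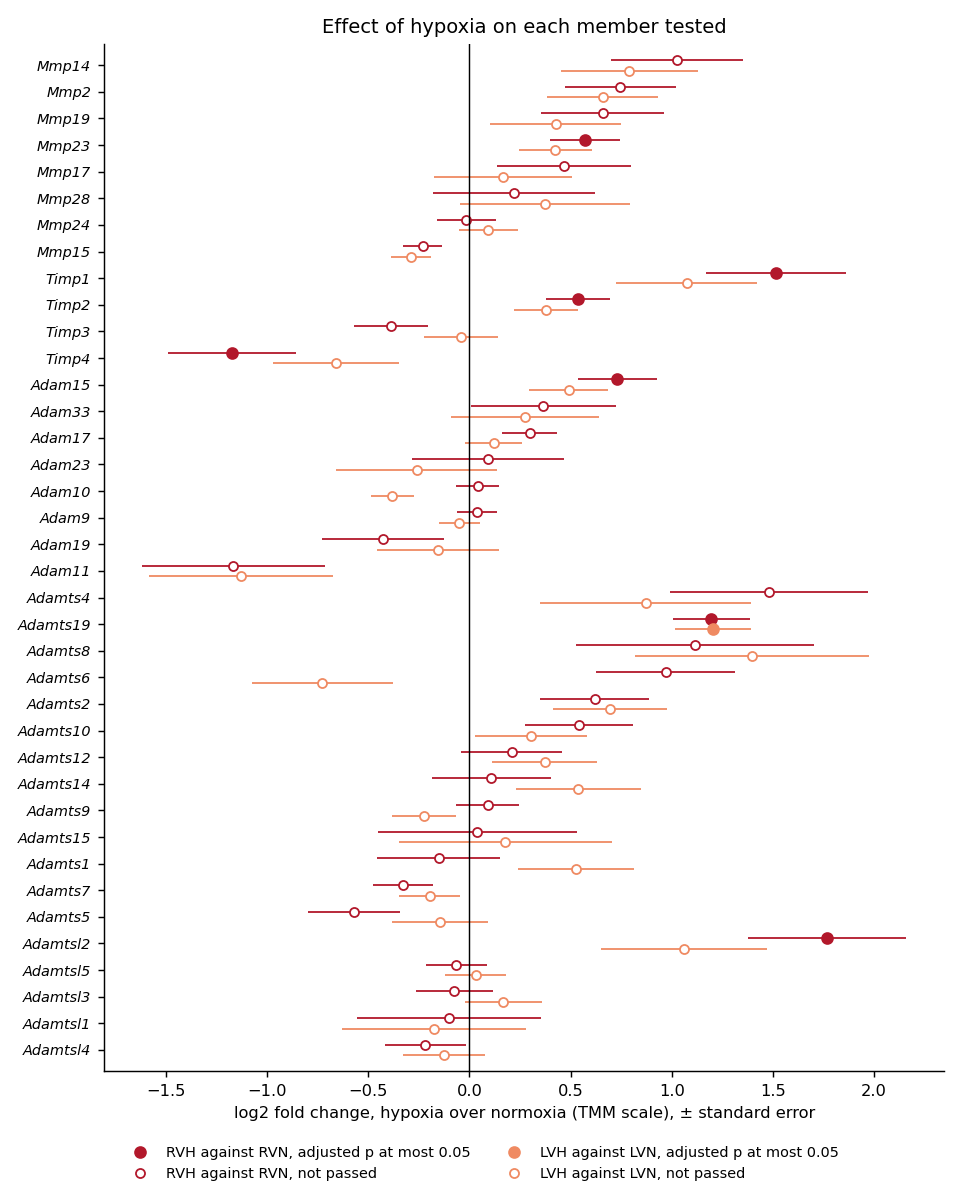
Hypoxia against normoxia in each ventricle for the 38 genes tested. The x axis is the log2 fold change from edgeR with its standard error as bars, for RVH against RVN and LVH against LVN, and filled points have an adjusted p of at most 0.05. In RVH against RVN the points run from -1.17 (Timp4) to 1.77 (Adamtsl2), with 7 filled, and in LVH against LVN only Adamts19 is filled.

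The inhibitors split in the hypoxic RV. Timp1, the inhibitor that cells secrete under inflammatory and growth signals, had 71.0, 82.5 and 34.2 TPM in RVH, against 15.3, 26.3 and 17.8 TPM in RVN. Every RVH library lay above every RVN library. The log2 fold change was 1.52 ± 0.34 (SE, n = 3 each; edgeR, adjusted p = 0.0175). Timp4, an inhibitor known for its high expression in heart muscle, had 9.12, 9.21 and 16.6 TPM in RVH, against 30.2, 19.3 and 24.5 TPM in RVN. All RVH libraries were below all RVN libraries, and RVH rat 4 was nearest to RVN for both inhibitors. Timp4 fell by 1.17 on the log2 scale (SE 0.32; edgeR, adjusted p = 0.0325). Timp4 was also not called in a fit of only the RV libraries.

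The bases before the start sites of Timp1 and Timp4 are shown because these inhibitors changed in opposite directions. They are the 250 bases before each gene's start in RefSeq's GRCr8 annotation, a later build than the Rnor 6.0 that the expression table uses, and run 5′ to 3′ on the gene's strand. Capitals mark matches on either strand to TGACTCA (the AP-1 element), TGAGTAA (an AP-1-like form, added after the Timp1 sequence was seen), ACGTG (the core of the HIF element) or TATAAA. The Timp1 stretch is chrX:3771123-3771372 on the minus strand and the Timp4 stretch is chr4:149985205-149985454 on the minus strand.
Timp1: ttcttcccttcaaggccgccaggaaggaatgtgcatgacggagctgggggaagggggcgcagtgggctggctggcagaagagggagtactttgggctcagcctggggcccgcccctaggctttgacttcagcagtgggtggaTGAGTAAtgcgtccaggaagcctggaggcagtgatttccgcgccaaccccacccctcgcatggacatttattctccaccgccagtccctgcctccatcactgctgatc
Timp4: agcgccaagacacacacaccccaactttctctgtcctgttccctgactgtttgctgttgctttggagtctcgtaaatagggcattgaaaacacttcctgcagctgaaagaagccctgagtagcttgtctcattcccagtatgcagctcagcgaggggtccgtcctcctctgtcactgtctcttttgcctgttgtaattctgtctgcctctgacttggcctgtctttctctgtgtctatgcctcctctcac
The Timp1 stretch held TGAGTAA at position -108 from the start, a 7-letter word that 2.38% of 33469 such promoters hold, and the Timp4 stretch held none of the 4 words. Among the 34 of 47 genes with a promoter in the table, TGACTCA was in 2 (4.05% of all promoters), ACGTG in 5 (16.6%) and TATAAA in 6 (12.9%). These are matches of letters only.

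Timp2, which inhibits MMPs and also helps Mmp14 activate pro-Mmp2 at the cell surface, had 149, 153 and 95.0 TPM in RVH, against 81.1, 91.7 and 76.4 TPM in RVN. The RVH libraries were all higher, RVH rat 4 by the least. On the log2 scale the fold change was 0.54 ± 0.16 (edgeR, adjusted p = 0.0428), and 7 of 16 alternatives kept the call, which was also lost without RVN rat 2. Timp3, the matrix-bound inhibitor that also blocks Adam17 and aggrecan-cutting ADAMTS proteases, had 42.9, 48.4 and 49.8 TPM in RVH, against 58.6, 65.8 and 46.6 TPM in RVN. Its groups overlapped and the log2 fold change of -0.39 ± 0.18 did not pass (edgeR, adjusted p = 0.173).

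In the LV the same inhibitors showed no call. Timp1 had 46.6, 16.9 and 17.1 TPM in LVH, against 11.3, 11.7 and 9.83 TPM in LVN. The LVH libraries were all higher but LVH rat 1 stood far above the others, and the log2 fold change of 1.07 ± 0.35 did not pass (edgeR, adjusted p = 0.149), while DESeq2 called it. Timp2 had 125, 61.8 and 79.9 TPM in LVH, against 60.8, 58.0 and 60.0 TPM in LVN. LVH rat 2 was barely above LVN (log2 fold change 0.38 ± 0.16; edgeR, adjusted p = 0.246). Timp3 had 65.4, 34.0 and 55.1 TPM in LVH, against 44.5, 55.0 and 39.8 TPM in LVN, with the groups overlapping. Timp4 had 13.5, 13.4 and 22.3 TPM in LVH, against 24.3, 19.9 and 25.9 TPM in LVN. LVH rat 4 overlapped LVN, and the log2 fold change was -0.66 ± 0.31 (edgeR, adjusted p = 0.301).

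**Figure D2:**
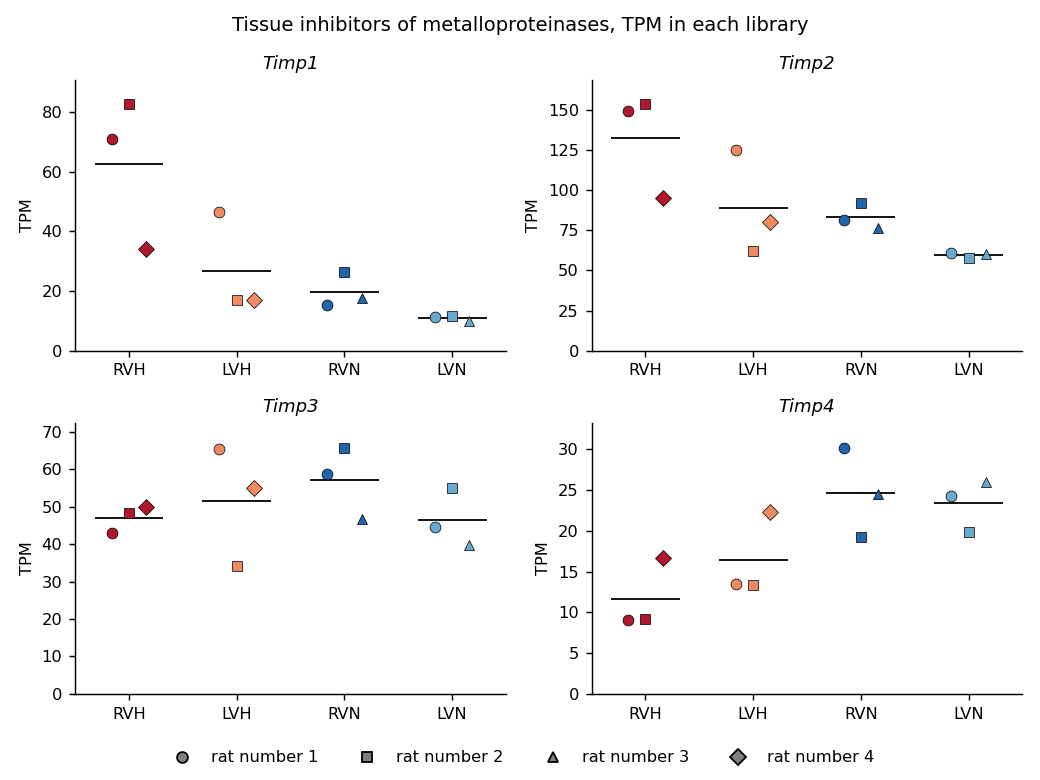
TPM of Timp1, Timp2, Timp3 and Timp4 in each library, with groups in the order RVH, LVH, RVN and LVN, markers by rat number (numbers in hypoxia and normoxia name different rats) and a line at the group mean. Timp1 and Timp2 are higher in every RVH than in every RVN library and Timp4 is lower, while Timp3 overlaps.

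The makeup of the inhibitor pool differed with these changes. Timp1 was 26.1, 28.1 and 17.5% of the summed Timp TPM in RVH and 18.6, 13.4 and 9.79% in LVH, against 8.26, 12.9 and 10.7% in RVN and 7.99, 8.12 and 7.25% in LVN. Timp4 was 3.35, 3.14 and 8.50% in RVH and 5.40, 10.6 and 12.8% in LVH, against 16.3, 9.50 and 14.8% in RVN and 17.2, 13.8 and 19.1% in LVN. Timp2 stayed the largest part, at 40.1 to 54.8% in all 12 libraries. These shares describe the pool and were not tested.

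**Figure D3:**
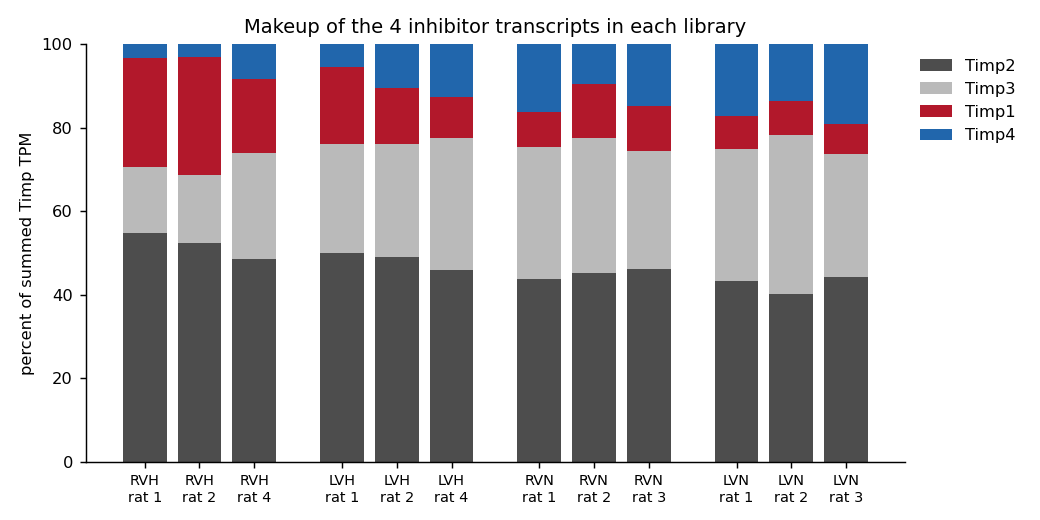
Percent of the summed Timp TPM taken by each inhibitor in each library, as stacked bars in the order RVH, LVH, RVN and LVN. Timp1 takes 17.5 to 28.1% in RVH and 8.26 to 12.9% in RVN, and Timp4 takes 3.14 to 8.50% in RVH and 9.50 to 16.3% in RVN.

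Mmp2 (gelatinase A), which cuts denatured and basement membrane collagens, was the most abundant protease of the set. It had 110, 126 and 56.7 TPM in RVH, against 51.1, 58.9 and 47.8 TPM in RVN. RVH rats 1 and 2 were far above RVN, and RVH rat 4 was within its range. The log2 fold change of 0.74 ± 0.27 did not pass (edgeR, adjusted p = 0.0914), while DESeq2 called it. Mmp14 (MT1-MMP), the membrane-anchored activator of Mmp2, had 27.2, 30.1 and 11.3 TPM in RVH, against 10.1, 8.67 and 11.5 TPM in RVN. Its order of libraries was the same as that of Mmp2 in RVH (log2 fold change 1.03 ± 0.33; edgeR, adjusted p = 0.0569), and it was called by DESeq2 and the likelihood ratio test. In the LV, Mmp2 had 105, 38.0 and 46.8 TPM in LVH, against 33.9, 34.4 and 35.1 TPM in LVN, and Mmp14 had 19.8, 7.25 and 7.54 TPM in LVH, against 5.93, 5.30 and 5.94 TPM in LVN. LVH did not overlap LVN for either gene, LVH rat 1 stood far above the other LVH libraries, and neither passed (log2 fold changes 0.66 ± 0.28 and 0.79 ± 0.34; edgeR, adjusted p = 0.250 and 0.262).

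Mmp23, a small membrane MMP without the hemopexin-like domain of most MMPs, was the only Mmp gene called by edgeR's quasi-likelihood fit in RVH against RVN. It had 6.67, 8.86 and 4.94 TPM in RVH, against 3.90, 5.11 and 3.61 TPM in RVN. RVH rat 4 was below RVN rat 2, so the TPM values overlapped. Its log2 fold change was 0.57 ± 0.17 (edgeR, adjusted p = 0.0470), and 7 of 16 alternatives kept the call. In the LV, Mmp23 had 5.09, 3.51 and 3.60 TPM in LVH, against 2.82, 2.83 and 2.40 TPM in LVN (log2 fold change 0.43 ± 0.18; edgeR, adjusted p = 0.259). Of the other Mmp genes, Mmp15 (MT2-MMP) had 21.6 to 26.2 TPM in RVH and 22.9 to 27.0 TPM in RVN, and Mmp24 (MT5-MMP) had 6.91 to 10.2 TPM in RVH and 7.17 to 8.97 TPM in RVN. Mmp17, Mmp19 and Mmp28 had at most 3.89 TPM in any library and did not pass.

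**Figure D4:**
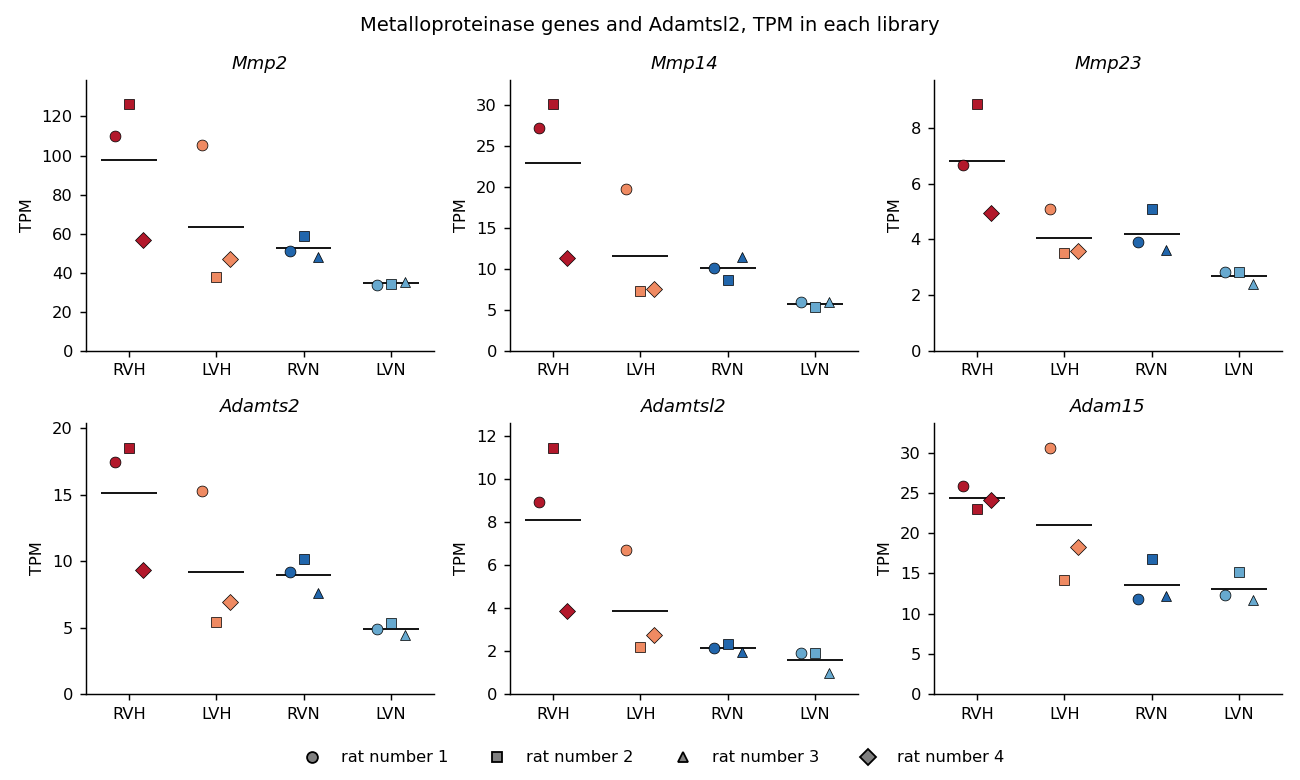
TPM of Mmp2, Mmp14, Mmp23, Adamts2, Adamtsl2 and Adam15 in each library, with groups in the order RVH, LVH, RVN and LVN, markers by rat number (numbers in hypoxia and normoxia name different rats) and a line at the group mean. LVH rat 1 lies above the other LVH libraries in all 6 genes, and RVH rat 4 is the lowest RVH library in all but Adam15.

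Mmp12, the elastase of macrophages, was too low for the test with a filter on low counts. It had 0.569, 0.291 and 0.180 TPM in RVH and 0.362, 0 and 0 TPM in LVH, against 0, 0 and 0.0536 TPM in RVN, and was listed at 0 in every LVN library. All RVH libraries were above all RVN libraries, and LVH rat 1 was the only LVH library above 0. The lowest of these lie near the floor of 3 counts (0.110 to 0.130 TPM in RVH), and without the filter on low counts the log2 fold change, which depends on the prior count, gave an adjusted p of 0.169 in edgeR. The summed macrophage markers were also higher in every RVH than in every RVN library. The Mmp12 promoter, chr8:12866402-12866651 on the plus strand of GRCr8, is shown because it held 3 of the 4 words searched, the most of the members matched; capitals are as above, and CACGTG matches ACGTG on both strands.
Mmp12: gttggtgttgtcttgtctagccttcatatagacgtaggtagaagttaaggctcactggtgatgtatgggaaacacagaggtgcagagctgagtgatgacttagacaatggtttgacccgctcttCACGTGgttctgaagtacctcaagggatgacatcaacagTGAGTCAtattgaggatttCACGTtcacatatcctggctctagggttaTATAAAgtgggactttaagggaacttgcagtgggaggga
Mmp8, the collagenase of neutrophils, and Mmp16 (MT3-MMP) were also untested. Mmp8 had 0.0806 to 0.220 TPM in RVH and 0.0193 to 0.0602 TPM in RVN, without overlap. Its 0.0806 and 0.1065 TPM in RVH rats 1 and 2 lay below the floors of 3 counts there (0.1277 and 0.1098 TPM). Without the filter on low counts its log2 fold change in RVH against RVN did not pass (edgeR, adjusted p = 0.317). Mmp8 and Mmp12 reached 0.1 TPM in hypoxic libraries only. They met the rule for reporting through those libraries, so their higher level in hypoxia is partly built in by that rule. Mmp16 had 0.105 to 0.396 TPM in RVH and 0.0954 to 0.147 TPM in RVN.

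Adamts19, a secreted protease whose loss in people is linked to heart valve disease, was the only gene of the set called by edgeR's quasi-likelihood fit in both ventricles. Timp1, Timp2, Adamtsl2, Adamts4 and Adamts14 were also higher in hypoxia without overlap in both ventricles, with no call in the LV in that fit. Of these, Adamts4 and Adamts14 were not called in the RV either (edgeR, adjusted p = 0.0651 and 0.875). For Adamts14 the lowest RVH value of 0.406 TPM barely exceeded the highest RVN value of 0.401 TPM. The share of all genes without overlap in both ventricles was not counted. Adamts19 is described first. Adamts19 had 8.07, 8.07 and 4.86 TPM in RVH, against 2.46, 2.42 and 3.37 TPM in RVN. In the LV it had 10.1, 7.93 and 6.37 TPM in LVH, against 3.23, 3.01 and 3.19 TPM in LVN. No hypoxic library overlapped a normoxic one in either ventricle. The log2 fold change was 1.20 ± 0.19 in RVH against RVN (edgeR, adjusted p = 0.00569) and 1.21 ± 0.19 in LVH against LVN (edgeR, adjusted p = 0.0155). The first was called in all 16 alternatives, with log2 fold changes of 1.08 to 1.43. The second was lost without LVH rat 2, LVN rat 1, LVN rat 2 or LVN rat 3, and in a fit of only the LV libraries, where its adjusted p was 0.0536 to 0.0821 and 0.0581 (adjusted p over its 16 alternatives 9.1e-06 to 0.0821). It was the only one of 38 (2.63%) to pass in LVH against LVN, where 1.37% of all genes tested passed. In this comparison 13 of 38 had an unadjusted p under 0.05 (17.6% of all genes tested). DESeq2 called 2, Adamts19 and Timp1, and 565 of all genes.

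Adamtsl2, which has no protease domain and binds fibrillin and the latent form of TGF-beta, had the largest log2 fold change of the 38 in RVH against RVN. It had 8.95, 11.5 and 3.85 TPM in RVH, against 2.12, 2.31 and 1.97 TPM in RVN. RVH rat 4 had the lowest RVH value and still lay above RVN. Its log2 fold change was 1.77 ± 0.39 (edgeR, adjusted p = 0.0158). In the LV it had 6.71, 2.17 and 2.75 TPM in LVH, against 1.91, 1.91 and 0.959 TPM in LVN. LVH rat 1 was again highest, and the log2 fold change of 1.06 ± 0.41 did not pass (edgeR, adjusted p = 0.216). Its promoter, chr3:30802450-30802699 on the plus strand of GRCr8, is shown because it alone of the 6 called genes with a promoter in the table held TATAAA, at position -30; capitals are as above.
Adamtsl2: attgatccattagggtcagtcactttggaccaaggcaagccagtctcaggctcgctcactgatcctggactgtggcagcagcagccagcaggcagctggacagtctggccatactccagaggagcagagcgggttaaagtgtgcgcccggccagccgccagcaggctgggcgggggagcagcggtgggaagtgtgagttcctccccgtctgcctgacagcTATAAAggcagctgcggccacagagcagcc
Adamtsl5, the Adamtsl gene of highest mean TPM, was not called. It had 17.7, 23.3 and 17.0 TPM in RVH and 19.7, 17.2 and 17.1 TPM in LVH, against 18.9, 17.0 and 19.7 TPM in RVN and 17.7, 17.3 and 12.3 TPM in LVN, with log2 fold changes of -0.06 ± 0.15 in the RV and 0.03 ± 0.15 in the LV.

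Among the other secreted proteases tested, none passed edgeR's quasi-likelihood fit in RVH against RVN, while the likelihood ratio test called Adamts4 and Adamts6 and the fit of only the RV libraries called Adamts10. Adamts4, which cuts versican and aggrecan, had 1.01, 0.769 and 0.339 TPM in RVH, against 0.195, 0.157 and 0.324 TPM in RVN. RVH rat 4 lay just above RVN rat 3, and the log2 fold change was 1.48 ± 0.49 (edgeR, adjusted p = 0.0651). In LVH it had 0.676, 0.272 and 0.205 TPM, against 0.187, 0.137 and 0.192 TPM in LVN. Adamts5, the other main aggrecanase, had 3.86, 3.23 and 2.34 TPM in RVH and 4.39, 1.97 and 2.15 TPM in LVH, against 4.97, 3.92 and 3.96 TPM in RVN and 3.02, 2.89 and 2.30 TPM in LVN. RVH was below RVN without overlap, LVH overlapped LVN, and the log2 fold change of -0.57 ± 0.23 in the RV did not pass (edgeR, adjusted p = 0.117). Adamts2, which removes the N-terminal propeptide of fibrillar procollagens, had 9.36 to 18.6 TPM in RVH and 7.60 to 10.2 TPM in RVN. It did not pass (log2 fold change 0.62 ± 0.27; edgeR, adjusted p = 0.144). Adamts8, a protease with an anti-angiogenic role in cell assays, had 0.574 to 1.06 TPM in RVH and 0.217 to 0.410 TPM in RVN, and Adamts10, a fibrillin-binding protease, had 8.95 to 14.6 TPM in RVH and 6.31 to 8.16 TPM in RVN. RVH and RVN did not overlap for either gene, and neither passed in the fit of all libraries. Adamts14 had 0.406 to 0.465 TPM in RVH and 0.355 to 0.401 TPM in RVN. Adamts9, Adamts12 and Adamts15 overlapped between RVH and RVN, as did Adamtsl1, Adamtsl3 and Adamtsl4, and none of these passed in any comparison.

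Adamts17, a protease of the same subfamily as Adamts19, was also too low for that test. It had 1.04, 1.62 and 0.369 TPM in RVH and 0.361, 0.0326 and 0.0809 TPM in LVH, against 0.110, 0.154 and 0.147 TPM in RVN and 0.132, 0.202 and 0.105 TPM in LVN. Every RVH library was above every RVN library and RVH rat 2 was highest. In the fit without a filter on low counts, the log2 fold change in RVH against RVN was 2.68 ± 0.62 (edgeR, adjusted p = 0.0242). The other untested genes were Adamts3, a procollagen N-proteinase, at 0.1 to 0.131 TPM in RVH and 0.253 to 0.322 TPM in RVN without overlap (adjusted p = 0.0772 in that fit), and Adam4, Adam8, Adam12 and Adam22, of which none exceeded 0.454 TPM in any library.

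Adam15, a membrane protease with a disintegrin domain, was the only Adam gene called. It had 25.9, 22.99 and 24.2 TPM in RVH, against 11.8, 16.9 and 12.2 TPM in RVN. The RVH libraries lay close together and above all RVN libraries (log2 fold change 0.73 ± 0.20; edgeR, adjusted p = 0.0310). This call was kept in 8 of 16 alternatives. In the LV it had 30.7, 14.2 and 18.3 TPM in LVH, against 12.3, 15.2 and 11.7 TPM in LVN, and the groups overlapped (log2 fold change 0.49 ± 0.20; edgeR, adjusted p = 0.225).

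The main sheddases passed in neither ventricle. Adam17, which releases TNF and ligands of the EGF receptor, had 15.3, 15.1 and 11.3 TPM in RVH and 17.0, 9.14 and 9.56 TPM in LVH, against 10.5, 9.71 and 10.8 TPM in RVN and 9.002, 10.1 and 9.70 TPM in LVN. RVH was above RVN without overlap, but RVH rat 4 was close to RVN (log2 fold change 0.30 ± 0.14; edgeR, adjusted p = 0.170). Adam10, which cuts Notch receptors and cadherins, had 17.0, 19.5 and 15.9 TPM in RVH and 15.9, 9.38 and 13.5 TPM in LVH, against 15.5, 14.3 and 17.0 TPM in RVN and 14.4, 13.7 and 16.6 TPM in LVN. Its groups overlapped in both ventricles, and the log2 fold changes of 0.04 ± 0.10 in the RV and -0.38 ± 0.11 in the LV did not pass (edgeR, adjusted p = 0.834 and 0.108). Of the other Adam genes tested, Adam9 and Adam19 had 9.73 to 28.5 TPM, and Adam33, Adam23 and Adam11 had 0.244 to 2.06 TPM, over all 12 libraries. Adam11, which lacks the zinc-binding motif of an active protease, had 0.476, 0.664 and 0.244 TPM in RVH and 0.477, 0.416 and 0.488 TPM in LVH, against 0.438, 1.17 and 1.25 TPM in RVN and 0.536, 1.36 and 0.884 TPM in LVN. LVH was below LVN without overlap, RVH overlapped RVN, and none of these genes passed in any comparison.

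Between the ventricles of hypoxic rats, 0 of 38 passed in RVH against LVH (edgeR), where 0.451% of all genes tested passed, 9 of 38 had an unadjusted p under 0.05 (23.7%, against 16.7% of all genes tested), the likelihood ratio test and DESeq2 each called 2 (Timp1 higher and Adamts1 lower) and limma called 0. The likelihood ratio test and DESeq2 called 500 and 528 of all genes in this comparison. Adamts1, a versican-cutting protease, had the smallest p. It had 6.01, 6.53 and 6.49 TPM in RVH, against 14.1, 11.5 and 23.3 TPM in LVH. The RVH libraries did not overlap the LVH libraries, and RVH was lower in 3 of 3 rats. The log2 fold change was -1.50 ± 0.30 (edgeR, adjusted p = 0.0615), and with the rat as a block, which compares the ventricles within each heart, Adamts1 passed (edgeR, adjusted p = 0.0406). Over its alternatives the adjusted p was 0.000273 to 0.249. Without LVH rat 1, 7 genes passed in RVH against LVH, Adamts1 lower and Mmp2, Mmp14, Timp1, Timp2, Adamts2 and Adamts17 higher, and 546 of all genes did in place of 62. Without RVH rat 4, Adamts17 passed.

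In normoxic rats, 0 of 38 passed in RVN against LVN (edgeR), where 0.0218% of all genes tested passed, 5 of 38 had an unadjusted p under 0.05 (13.2%, against 9.29% of all genes tested), and the likelihood ratio test, DESeq2 and limma also called 0. The 3 of smallest p were Adamts7, Adamts1 and Mmp23. Adamts7, which cuts the cartilage matrix protein COMP, had 6.22, 6.20 and 6.23 TPM in RVN, against 4.54, 4.50 and 3.18 TPM in LVN. The RVN libraries were close together and above all LVN libraries (log2 fold change 0.42 ± 0.15; edgeR, adjusted p = 0.422). In hypoxia it had 5.01, 5.71 and 5.36 TPM in RVH, against 4.54, 3.05 and 4.43 TPM in LVH, again without overlap. Adamts1 had 6.42, 6.84 and 6.28 TPM in RVN, against 6.74, 15.3 and 8.40 TPM in LVN. LVN rat 1 overlapped RVN, and the RV values of Adamts1 lay between 6.01 and 6.84 TPM in all 6 rats while those of the LV ran from 6.74 to 23.3 TPM (log2 fold change in RVN against LVN -0.82 ± 0.30; edgeR, adjusted p = 0.433).

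Within each heart, some genes differed between the ventricles in 1 direction in all 6 rats. On TMM-scaled CPM, 9 of 38 were higher in the RV of every rat, namely Timp1, Timp2, Mmp2, Mmp14, Mmp19, Mmp23, Adamts2, Adamts7 and Adam23, where 6.73% of all genes tested were. Lower in the RV of every rat were 4 of 38, namely Adamts1, Adamts19, Adamtsl3 and Mmp24, where 6.97% of all genes tested were. On TPM the same 9 were higher in the RV of every rat, with Adam10, Adamts4, Adamts10 and Adamtsl2 added (13 of 38, where 13.8% of all genes tested were), and only Adamts1 was lower in every rat (0.989% of all genes tested). The direction of Adamts19, Adamtsl3 and Mmp24 thus held in every rat on the TMM scale alone. These counts are a description and were not tested. All 10 fibroblast and all 15 macrophage and monocyte markers tested also had positive log2 fold changes in RVH against LVH and in RVN against LVN, and their part in these directions was not tested.

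The effect of hypoxia on the RV was set against its effect on the LV by testing the difference itself. In this test 0 of 38 passed (edgeR), where 0% of all genes tested passed, 2 of 38 had an unadjusted p under 0.05 (5.26%, against 7.60% of all genes tested), and the likelihood ratio test, DESeq2 and limma also called 0. None of the 38 is therefore shown to respond differently in the ventricles, those called in the RV alone included. For Timp1 the difference of the 2 effects was 0.44 ± 0.48 on the log2 scale, for Timp4 -0.51 ± 0.44 and for Adamtsl2 0.71 ± 0.57 (SE). The 2 of smallest p were Adamts6 and Adam10. Adamts6, a fibrillin-linked protease, had 0.934, 1.45 and 1.09 TPM in RVH, against 0.525, 0.730 and 0.407 TPM in RVN. In the LV it had 0.609, 0.307 and 0.819 TPM in LVH, against 0.675, 1.01 and 0.858 TPM in LVN. RVH was above RVN and above LVH without overlap, and LVH overlapped LVN. The difference of the effects was 1.70 ± 0.49 for Adamts6 and 0.42 ± 0.15 for Adam10 (SE; edgeR, adjusted p = 0.521 and 0.581).

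**Figure D5:**
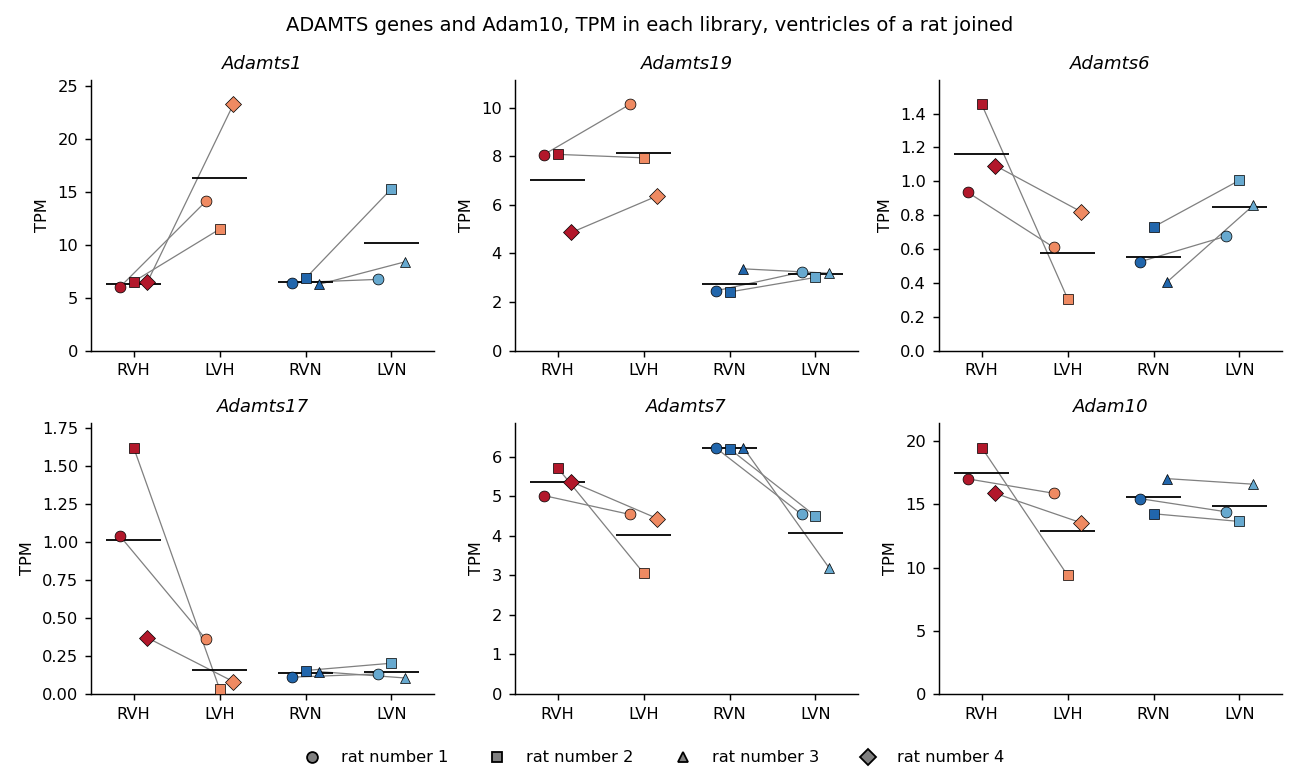
TPM of Adamts1, Adamts19, Adamts6, Adamts17, Adamts7 and Adam10 in each library, with groups in the order RVH, LVH, RVN and LVN and lines joining the ventricles of a rat. Adamts19 is higher in every hypoxic than in every normoxic library, Adamts1 is lower in RVH than in LVH of the same rat in 3 of 3 hypoxic rats, and the lines of Adamts6 slope opposite ways in hypoxic and normoxic rats.

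Genes that work with these proteases were taken from lists of other inhibitors, activators and partners, and substrates, and counted in RVH against RVN. In this comparison 15% of all genes tested passed in either direction. Of 6 other inhibitors and binding proteins tested, 2 rose and 1 fell. Pcolce, which enhances procollagen processing, rose by a log2 fold change of 1.07 ± 0.24 (edgeR, adjusted p = 0.0177) and the collagen-binding Sparc rose by 0.96 ± 0.16 (adjusted p = 0.00597). Spock2, a matrix proteoglycan, fell by 2.07 on the log2 scale (SE 0.30; adjusted p = 0.00442). Reck, a membrane-anchored inhibitor of several MMPs, had 3.99 to 4.50 TPM in RVH and 3.66 to 4.27 TPM in RVN, with a log2 fold change of -0.01 ± 0.16. Of 21 activators and partners, 3 rose, namely Plat (tissue plasminogen activator), Plaur (the urokinase receptor) and Serpine2 (a serpin that inhibits plasminogen activators), and 1 fell, the proprotein convertase Pcsk6. Their log2 fold changes were 0.75 ± 0.20, 1.06 ± 0.24, 1.04 ± 0.22 and -0.52 ± 0.11.

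Of 19 substrates shed by Adam10 and Adam17, 1 rose, Tnfrsf1a, a TNF receptor (log2 fold change 0.61 ± 0.15; edgeR, adjusted p = 0.0216). Hbegf, a ligand of the EGF receptor, passed in the other ventricle. It had 8.81, 9.27 and 10.97 TPM in LVH, against 3.19, 3.19 and 4.34 TPM in LVN, and 4.46, 5.39 and 2.56 TPM in RVH. The LVH libraries were above all others (log2 fold change 1.30 ± 0.24 in LVH against LVN and -1.40 ± 0.24 in RVH against LVH; edgeR, adjusted p = 0.0320 and 0.0442). Of 11 substrates cleaved by ADAMTS proteases, 3 rose and none fell, namely Col3a1 (log2 fold change 1.30 ± 0.30), Efemp2 (0.77 ± 0.21) and Fn1 (1.46 ± 0.44). Col3a1 is also on the fibroblast marker list.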

How the data were processed

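The labels put each library in a ventricle and an exposure, and CH in a title was read as hypoxia and NT as normoxia from the design text. Per the labels and the study's methods, the authors quantified 50 bp single reads (TruSeq stranded mRNA) with kallisto 0.43.1 on Ensembl transcripts of Rnor 6.0 and deposited gene-level TPM and estimated counts from tximport, and FastQC and edgeR are named in the submitters' notes. Each library's estimated counts are its TPM times 1 constant, so they carry no more than the TPM and the total. Values are those of estimates and not of counted molecules, so floors are rough guides to counting error only and take no account of transcript length. The table gives gene names and no coordinates, and names were matched as written. Entries with a number for a name (27 of 23553, 0.0408 to 0.0621% of counts) were left out.

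Estimated counts were rounded and fitted in edgeR 4.0.16 (R 4.3.3) with filterByExpr, TMM factors and 4 group means over all 12 libraries (8 residual degrees of freedom), tested with glmQLFTest and adjusted by Benjamini-Hochberg over all 13756 genes tested, with a call at 0.05. In all, 5 contrasts were tested, the last being the difference of the hypoxia effects. The standard error is the log2 fold change divided by the root of F. The fit was tested on simulated data. Alternatives were RLE factors, library totals, the likelihood ratio test, DESeq2 1.42.0, no filter, at least 1 CPM in 3 libraries, only the libraries compared, limma 3.58.1 on log2(TPM + 1) and log2(TPM + 0.1), each library left out, and a replicate block. The ventricles of a rat pair by design: their residuals correlated by 0.173, 0.089 and 0.213 in hypoxic and 0.037, 0.140 and 0.159 in normoxic rats. RV and LV libraries of different rats correlated by -0.184 to 0.116, so the values of 0.089 and 0.037 lay within that range. Libraries were printed in full for genes called, the 3 of smallest p in each contrast, the most abundant of each class, and Timp1 to Timp4, Mmp2, Mmp9, Mmp14, Adam10, Adam17, Adamts1, Adamts4 and Adamts5. The members, lists and motifs were chosen with earlier results of these data known. Promoters came from RefSeq (GRCr8), matched by symbol.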

Additional observations from a re-analysis of the deposited data

Results flagged for a closer look

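The ratio of RV to LV within a rat moved in opposite directions in hypoxic and normoxic rats for 2 of 38 genes. The share of all genes with this pattern was not counted. Both had an unadjusted p under 0.05 for the difference of the hypoxia effects. That p rests on the same libraries and adds no separate support. Of the 38, 5.26% had such a p, against 7.60% of all genes tested. For Adamts6 the log2 ratio of RV over LV, on TMM-scaled CPM with 0.5 added, was 0.36, 1.03 and 0.27 in hypoxic rats 1, 2 and 4, against -0.36, -0.38 and -0.70 in normoxic rats 1, 2 and 3, and the difference of the hypoxia effects was 1.70 ± 0.49 (SE; edgeR, adjusted p = 0.521). The ratio of TPM, 1.53, 4.74 and 1.33 in hypoxic rats against 0.777, 0.726 and 0.475 in normoxic rats, points the same way. For Adam10 the log2 ratio was 0.14, 0.54 and 0.25 in hypoxic rats, against -0.12, -0.11 and -0.11 in normoxic rats, and the difference was 0.42 ± 0.15 (SE; edgeR, adjusted p = 0.581). In TPM the RV was the higher ventricle of Adam10 in normoxic rats too, with ratios of 1.07, 1.04 and 1.03, against 1.07, 2.08 and 1.17 in hypoxic rats, so the opposite direction rests on the TMM scaling. Neither gene passed after adjustment over all genes tested, and none of the alternatives called either. Hypoxic rat 2, whose LVH library held the most erythroid RNA, had the largest ratio for both genes, and the part of that library in the differences was not tested beyond leaving it out, which gave 1.45 for Adamts6 and 0.33 for Adam10.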

How the results depend on the processing

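Of 19 values of named genes tracked under every alternative, none reversed its direction. Over all 38 genes, library totals in place of TMM changed the sign of 4 in RVH against RVN (Adamtsl5 among them), 6 in LVH against LVN (Timp3 and Adamts5 among them), 5 in RVH against LVH and 9 in RVN against LVN (Timp4 and Adam10 among them), none of them called. In RVH against RVN, where 7 of 38 passed, the count was 10 with the likelihood ratio test, 9 with DESeq2, 4 with library totals, 3 with limma on log2(TPM + 0.1) and 1 to 10 with a library left out. Of all genes, 2067 passed in the main fit, and 2420, 2273, 1293, 786 and 599 to 2460 under these settings. In LVH against LVN, where 1 passed, the count was 2 with DESeq2, 0 with only the LV libraries and 0 to 1 with a library left out. Of all genes, 188 passed in the main fit, and 565, 29 and 30 to 157 under these settings. In RVH against LVH, where 0 passed, the count was 2 with the likelihood ratio test, 2 with DESeq2 and 0 to 7 with a library left out. Of all genes, 62 passed in the main fit, and 500, 528 and 0 to 546 under these settings. RVN against LVN and the difference of the hypoxia effects kept 0 throughout. Blocked by rat, the pairing the design gives, RVH against LVH had 1 call (Adamts1), and RVN against LVN and the difference of the hypoxia effects kept 0. The block by rat called 257 of all genes in RVH against LVH. Blocked by the replicate number, which pairs different rats across exposures, 14 passed in RVH against RVN (10 higher, 4 lower) and 3 in LVH against LVN. That block called 2885 and 656 of all genes in these comparisons. Of the 19 values under the alternatives, 265 kept their side of the threshold, 45 lost their call and 8 gained one. The genes under 1 TPM rest on few estimated counts, so small differences there may go undetected. Their standard errors hold the spread between rats as well as the depth, and are not a limit of detection.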
